A study of Mus musculus with 9 samples.

Results

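S100 genes encode small calcium-binding proteins that mostly work as dimers. Binding of calcium opens a surface with which most of them hold a target protein, such as an annexin, a myosin or a calcium pump, and S100a10 is the exception that is held in an open form without calcium. Most of the genes lie in a cluster on chromosome 3 in the mouse, beside the genes of the skin barrier, and several family members are used as markers of epithelial, stromal or other differentiated cells. Here 8 members were followed, S100a1, S100a3, S100a4, S100a6, S100a10, S100a11, S100a13 and S100a16, chosen by name from 17 S100 genes in a table of 24819 gene symbols. The choice was made with the values of these libraries known, so the members' levels and differences are given below as a description, with no test.

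The libraries came from E14, a mouse embryonic stem cell line, grown on gelatin in 3 media with 3 libraries each, 9 in all. ES medium held serum and leukemia inhibitory factor (LIF), 2iLIF medium was N2B27 with LIF and a pair of kinase inhibitors known as 2i, and EPSCM was expanded potential stem cell medium. All groups are this single line with no transgene or treatment named beyond the medium, and the labels leave unsaid whether libraries of the same medium were separate cultures. Each p-value therefore measures only the spread between libraries, which may be technical. Levels are FPKM (fragments scaled for transcript length and library size), given as mean ± SD with n = 3 libraries. Differences, given ± SE, compare values of log2(FPKM + 1), and for genes with low values this scale understates the change. Because FPKM is per length, levels of different genes can be set side by side, but only roughly where a gene may share reads with another.

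Library sums ranged from 546636 to 600728 FPKM, and 11155 to 11764 genes reached 1 FPKM in a library. The file holds no read counts. From the steps between low values, 1 fragment in a transcript of 1 kb was worth roughly 0.0376 to 0.0562 FPKM, an estimate that depends on transcript lengths from another annotation. ES replicate 1, 2iLIF replicate 1 and EPSCM replicate 2, with library numbers 16, 18 and 19, stood apart from the other libraries of their medium across genes, 1 in each medium, and values without them are given in the closing section and below where they matter. All 10 markers of pluripotent cells were expressed in every medium. They summed to 3902 to 4348 FPKM in ES, 2794 to 3104 in 2iLIF and 2129 to 2259 in EPSCM libraries. The markers did not all follow the sum. Pou5f1 averaged 1352, 1064 and 627 FPKM in ES, 2iLIF and EPSCM, and Utf1 536, 28.1 and 28.4. Highest in 2iLIF were Nanog (326, 432 and 295), Klf4 (85.9, 143 and 61.5) and Esrrb (248, 291 and 175). By the call defined further below, 4 of the 10 were lower in EPSCM than in ES. In EPSCM against 2iLIF 2 were lower, as were 2 in 2iLIF against ES, and none was higher in any comparison. Fewer cells of a type and less RNA per cell cannot be told apart in such bulk libraries.

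Of the 8 members, 6 passed the filter of at least 1 FPKM in at least 3 libraries, as did 12330 genes in all. S100a3 and S100a4 did not pass. The 6 fell into 3 patterns. S100a1 and S100a13 had their lowest levels in ES, and S100a6 and S100a10 had their highest levels there. S100a11 and S100a16 were also highest in ES but varied less on the log2(FPKM + 1) scale. Before the values, the DNA at the starts of a few members is shown, among them S100a1 and S100a13, which start back to back. Whether the starts bear on the levels was not tested. Promoter windows of RefSeq (GRCm38.p6, 250 bases before to 50 after a start) matched 7 of the 8 members, with 11 windows. S100a10 had none. The stretches below are the parts before the start that hold no annotated exon, 5′ to 3′ on the plus strand, with AP-1 (TGANTCA) and GC box (GGGCGG) matches on either strand in capitals. The first is the gap between S100a1 and S100a13 at chr3:90514393-90514434, the next lies before S100a6 at chr3:90612644-90612881, and the last lies before S100a11 at chr3:93520246-93520487.
S100a1 and S100a13 gap: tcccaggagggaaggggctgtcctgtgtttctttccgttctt
S100a6: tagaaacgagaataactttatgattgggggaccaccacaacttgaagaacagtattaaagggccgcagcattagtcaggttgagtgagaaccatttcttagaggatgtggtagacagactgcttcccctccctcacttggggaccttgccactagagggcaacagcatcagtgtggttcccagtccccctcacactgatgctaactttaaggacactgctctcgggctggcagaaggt
S100a11: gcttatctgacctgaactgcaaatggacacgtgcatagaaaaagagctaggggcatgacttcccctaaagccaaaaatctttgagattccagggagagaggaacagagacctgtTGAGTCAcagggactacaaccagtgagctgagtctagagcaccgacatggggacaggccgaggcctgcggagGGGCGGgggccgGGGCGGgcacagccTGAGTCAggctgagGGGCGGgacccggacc

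S100a1 is read from the minus strand and S100a13 from the plus strand, and their RefSeq starts were 105 bases apart with 104 bases between them. In the GENCODE annotation of the same assembly S100a1 starts closer, leaving the 42 bases printed above between the gene models. RefSeq's full span of S100a13, in contrast, begins inside S100a1 on the other strand. Because the RefSeq starts lay 105 bases apart, the promoter windows of the 2 genes shared 204 bases. The S100a11 stretch held 2 AP-1 and 3 GC box matches, and 9 CpG sites, whereas the S100a6 stretch held neither motif and 3 CpG sites. Over 32851 promoter windows of all genes, 7.81% held an AP-1 match and 35.7% a GC box match. Of the 11 windows of members, 2 held an AP-1 match, those of S100a11 and of a start of S100a16, and 3 a GC box match. Of 9 motifs searched, among them a TATA box (TATAAA), a STAT site (TTCNNNGAA) and a TCF/LEF site (CTTTGAT), none was found in the S100a6 window. These are matches of letters, not measured binding.

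S100a1, best known as a regulator of calcium handling in heart and muscle, stood at 0.969, 1.90 and 1.36 FPKM in ES replicates 1 to 3, at 84.1, 68.6 and 64.5 in 2iLIF and at 40.7, 44.2 and 36.0 in EPSCM. The 3 media did not overlap, and the order was 2iLIF, then EPSCM, then ES. S100a13, which takes part in the release of growth factors and cytokines that lack a signal peptide, stood at 5.20, 3.80 and 4.90 FPKM in ES, at 153, 137 and 143 in 2iLIF and at 68.5, 73.9 and 64.2 in EPSCM. Its media did not overlap either and had the same order. Means of 2iLIF were 51.4 times those of ES for S100a1 and 31.2 times for S100a13, and means of EPSCM were 28.6 and 14.9 times those of ES.

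On the log2 scale S100a1 differed by 4.94 ± 0.15 between 2iLIF and ES, by 4.11 ± 0.15 between EPSCM and ES and by -0.82 ± 0.15 between EPSCM and 2iLIF. For S100a13 the differences were 4.70 ± 0.10, 3.64 ± 0.10 and -1.06 ± 0.10 in the same order. Among 12329 other tested genes S100a13 had the pattern nearest to that of S100a1, and S100a1 the nearest to S100a13, with a root mean square distance of 0.30 over the 9 libraries between log2 values centred on each gene's mean. Within a library S100a13 stood above S100a1 in all 9, by 1.82 to 2.22 times in 2iLIF, 1.67 to 1.78 times in EPSCM and 2.00 to 5.37 times in ES, where both were low. The next nearest to S100a1 were Aqp3, a water and glycerol channel, at 0.47 and Crxos at 0.49, and to S100a13 the imprinted zinc finger gene Plagl1 at 0.46 and 2210409E12Rik at 0.49.

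For context, 616 pairs of tested genes had starts on opposite strands pointing away from each other and at most 1000 bases apart. In 7 of them both genes differed by at least 1 on the log2 scale in the same direction between 2iLIF and ES with no overlap between libraries, 4 of these with both higher in 2iLIF, and S100a1 with S100a13 was 1 of the 4. No pair differed in opposite directions in that comparison, while 55 pairs had a single gene past the limit. In EPSCM against ES, 14 pairs differed in the same direction and 8 of them had both genes higher in EPSCM, this pair included. In EPSCM against 2iLIF 7 pairs differed in the same direction and 76 had a single gene past the limit, among them this pair, with S100a13 past it and S100a1 not. The kit used was stranded, but the sources used here do not say whether the counting used strand. Without it, S100a1 and S100a13 may share reads where their RefSeq spans overlap. Their nearness in pattern and the ratio between them are uncertain to that extent.

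**Figure D1:**
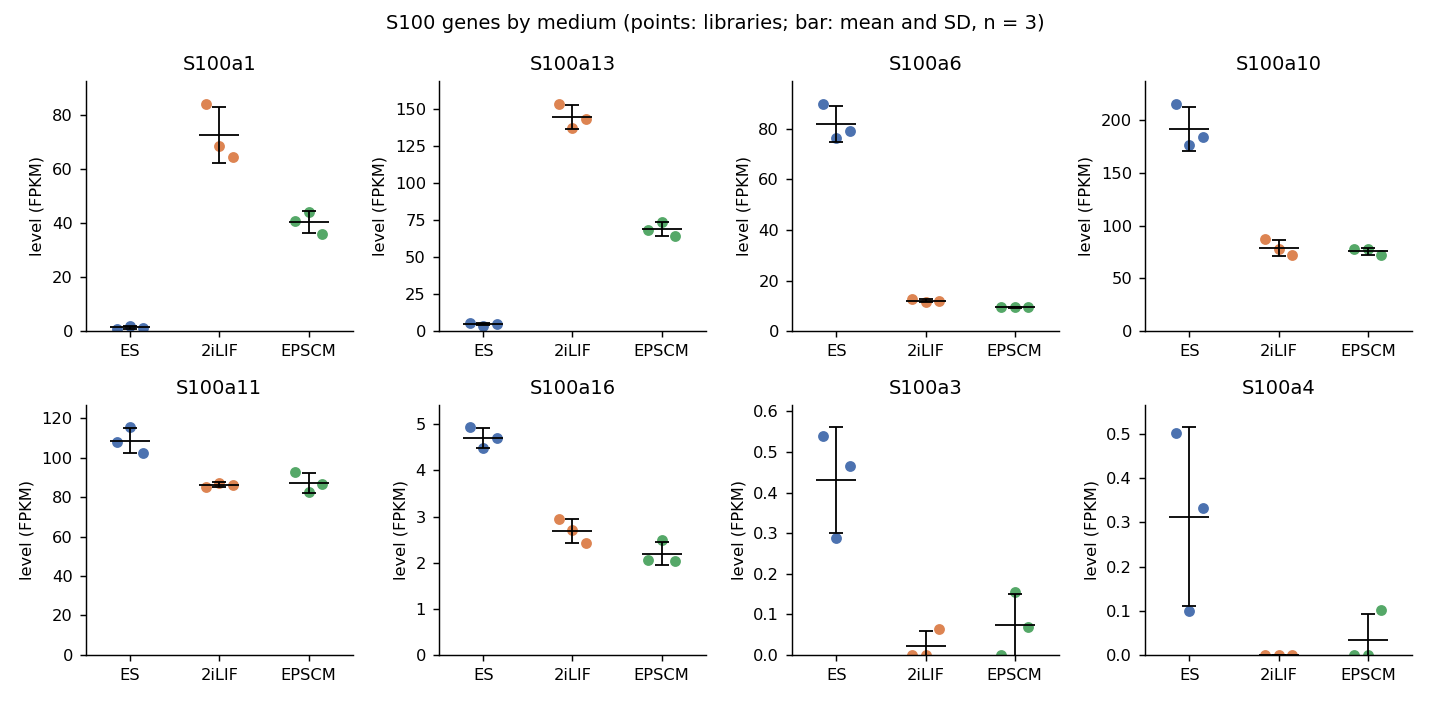
Level in FPKM of the 8 S100 genes in each library (points) by medium, with mean and SD (n = 3, error bars cut at 0); each panel has its own scale. S100a1 and S100a13 lie lowest in the ES libraries, S100a6 and S100a10 highest, and S100a3 and S100a4 stay under 0.6 FPKM in all 9 libraries.

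S100a6, or calcyclin, is found in proliferating and stromal cells and binds annexins and the calcyclin-binding protein Cacybp. It stood at 89.9, 76.3 and 79.3 FPKM in ES, at 12.7, 11.6 and 12.04 in 2iLIF and at 9.61, 9.42 and 9.39 in EPSCM. All ES libraries lay far above the other 6, and every 2iLIF library lay above every EPSCM library by a small margin. Means in ES were 6.76 times those in 2iLIF and 8.64 times those in EPSCM. The differences were -2.66 ± 0.07 for 2iLIF against ES, -2.98 ± 0.07 for EPSCM against ES and -0.32 ± 0.07 for EPSCM against 2iLIF. The nearest patterns among tested genes were those of Dusp6, a phosphatase of ERK, at a distance of 0.125, Bmp4, a secreted growth factor, at 0.129 and Tor3a at 0.133. Dusp6 stood at 37.8 ± 3.89 FPKM in ES, 4.35 ± 0.130 in 2iLIF and 3.31 ± 0.482 in EPSCM.

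S100a10, or p11, forms a tight complex with annexin A2 at the cell membrane, where it carries channels and receptors to the surface and binds plasminogen. It stood at 215, 176 and 184 FPKM in ES, at 87.3, 78.2 and 71.9 in 2iLIF and at 77.5, 78.2 and 72.1 in EPSCM. The ES libraries lay above all others, and 2iLIF and EPSCM overlapped. Means in ES were 2.42 times those in 2iLIF and 2.53 times those in EPSCM, with differences of -1.27 ± 0.09 and -1.32 ± 0.09, and EPSCM and 2iLIF differed by -0.06 ± 0.09. Its nearest patterns were those of Metrn, a secreted neural factor, at 0.0595, Plxnb1, a semaphorin receptor, at 0.0646 and Det1 at 0.0709. In ES the library that stands apart, replicate 1, had the highest level of both S100a6 and S100a10, and the ES libraries lay above the others without it as well.

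S100a11, or calgizzarin, binds annexin A1 and takes part in membrane repair. It stood at 108, 115 and 103 FPKM in ES, at 85.2, 87.4 and 86.4 in 2iLIF and at 92.6, 82.5 and 86.9 in EPSCM, so that ES lay above the others without overlap while 2iLIF and EPSCM overlapped. The differences were small, at -0.33 ± 0.06 for 2iLIF against ES, -0.31 ± 0.06 for EPSCM against ES and 0.01 ± 0.06 for EPSCM against 2iLIF, and quantile normalization brought those against ES to -0.18 and -0.14. The annotation holds a pseudogene, S100a11-ps, which may share reads with it, so its value is uncertain. Among the nearest patterns were those of C2cd3 at 0.0534 and Coprs at 0.0545.

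S100a16, a widely expressed member, was low throughout. It stood at 4.93, 4.49 and 4.70 FPKM in ES, at 2.95, 2.71 and 2.42 in 2iLIF and at 2.07, 2.48 and 2.04 in EPSCM. ES lay above both others, which overlapped with each other. Means in ES were 1.75 times those in 2iLIF and 2.14 times those in EPSCM, which the log2(FPKM + 1) scale understates at such low levels. The differences were -0.63 ± 0.08 for 2iLIF against ES, -0.84 ± 0.08 for EPSCM against ES and -0.21 ± 0.08 for EPSCM against 2iLIF, the last of which quantile normalization moved to -0.42. Psph, an enzyme of serine synthesis, at 0.0398, and the mitochondrial ribosomal protein genes Mrps27 at 0.0461 and Mrpl55 at 0.0549 were nearest in pattern.

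S100a3, known from hair cuticle, and S100a4, known as fibroblast-specific protein and as a driver of cell motility, were close to the detection limit. S100a3 stood at 0.540, 0.287 and 0.464 FPKM in ES, was listed at 0 in 2iLIF replicates 1 and 2 and stood at 0.0641 in replicate 3, and in EPSCM was listed at 0 in replicate 1 with 0.154 and 0.0680 in the others. S100a4 stood at 0.503, 0.1004 and 0.333 FPKM in ES, was listed at 0 in all 3 2iLIF libraries and in EPSCM replicates 1 and 2, and stood at 0.101 in EPSCM replicate 3. ES held the highest values of both, although S100a4 overlapped between ES and EPSCM. Such values rest on very few fragments. S100a3 and S100a4 also overlap other annotated genes on the same strand, S100a2 and Gm42674, so their counts are uncertain.

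Counted over the 6 members that passed the filter, 2 were higher and 2 lower in 2iLIF than in ES by at least 1 on the log2 scale with no overlap between libraries, where 7.61% of all tested genes were higher and 7.15% lower by that rule, or 14.8% in either direction. In EPSCM against ES 2 were higher and 2 lower, with 11.7% and 7.96% of all tested genes, or 19.6%. These are the same 4 genes in both comparisons, S100a1 and S100a13 higher and S100a6 and S100a10 lower, and both comparisons share the ES libraries. In EPSCM against 2iLIF none was higher and S100a13 alone was lower, with 10.1% and 5.92% of all tested genes, or 16.1%. Since the members were chosen with these values known, nothing is read from the counts. Nearest to the limit of 1 were S100a13 in EPSCM against 2iLIF inside it, at -1.06, and S100a16 in EPSCM against ES outside it, at -0.84. The median difference of the 6 members was -0.48 in 2iLIF against ES, -0.58 in EPSCM against ES and -0.27 in EPSCM against 2iLIF, beside 0.03, 0.09 and 0.03 over all tested genes.

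**Figure D2:**
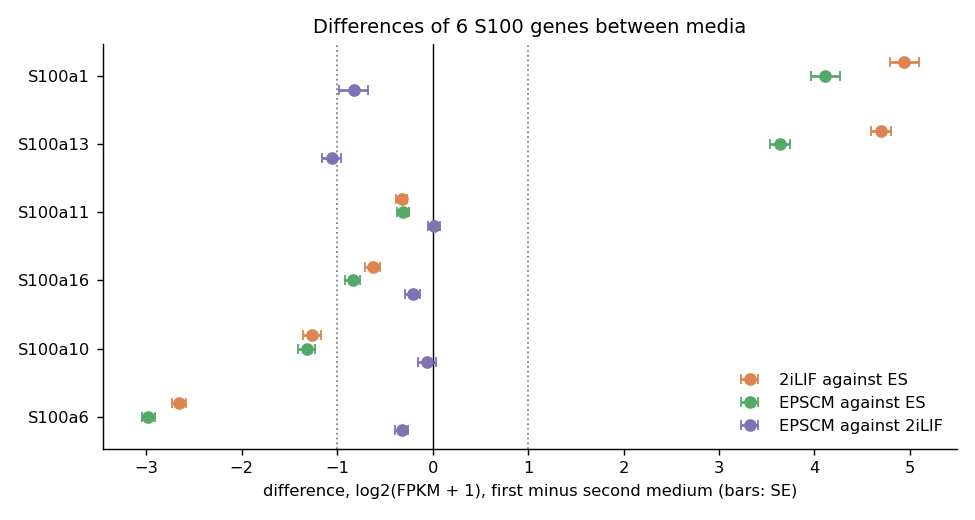
Difference on the log2(FPKM + 1) scale (points) ± SE (bars) of the 6 S100 genes that passed the filter, for each of the 3 comparisons, with dotted lines at -1 and 1. S100a1 and S100a13 lie right of the line in both comparisons against ES, at 3.64 to 4.94, and S100a6 and S100a10 lie left of it, at -2.98 to -1.27.

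Added up, the 17 S100 genes came to 394 ± 27.5 FPKM in ES, 400 ± 24.3 in 2iLIF and 285 ± 11.6 in EPSCM, with the ES and 2iLIF libraries overlapping and every EPSCM library below both. S100a10 held 48.6% of it in ES, 19.8% in 2iLIF and 26.7% in EPSCM. S100a6 held 20.7%, 3.03% and 3.33%, while S100a13 held 1.17%, 36.1% and 24.2% and S100a1 held 0.363%, 18.05% and 14.1%. S100a11 held 27.6%, 21.7% and 30.7%. In 2iLIF the member with the highest level was thus S100a13, in ES it was S100a10, and in EPSCM S100a11 stood at 87.3 ± 5.09 FPKM above S100a10 at 75.9 ± 3.35. As S100a11 may share reads with its pseudogene, its shares and its place in this order are uncertain.

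**Figure D3:**
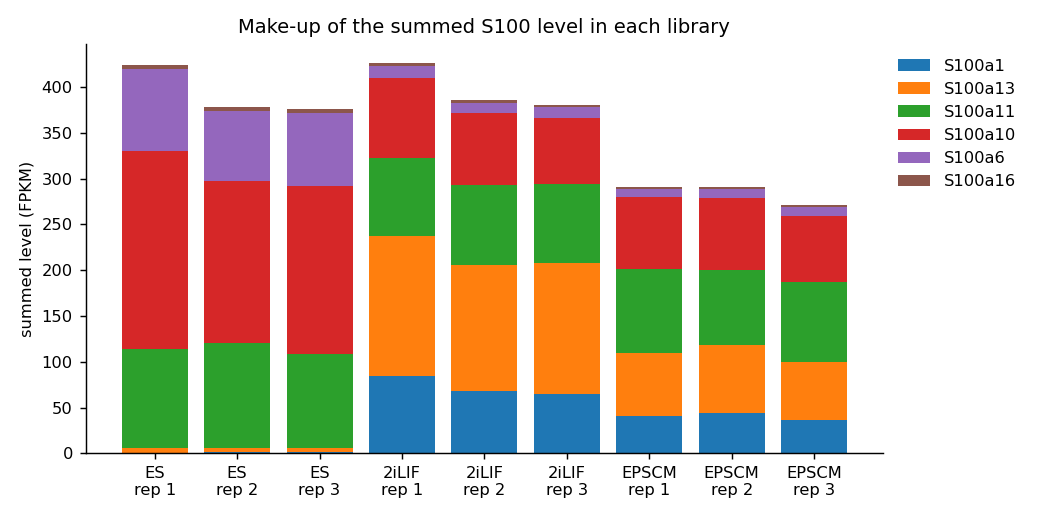
Summed level in FPKM of 6 S100 genes in each of the 9 libraries, stacked by gene. S100a10 and S100a6 fill most of the ES bars beside S100a11, whereas S100a13 and S100a1 take up a large part of the 2iLIF and EPSCM bars.

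The 9 S100 genes of the table that are not members were at or near 0. S100a2, S100a5, S100a8, S100a9 and S100z were listed at 0 in every library, and S100a7a and S100b stayed under 0.1 FPKM. S100a14, an epithelial member that lies between S100a13 and S100a16, ranged from 0.257 to 0.908 FPKM. The highest was S100g, the intestinal calcium buffer calbindin-D9k, at 1.52, 1.89 and 2.28 FPKM in the 2iLIF libraries. It was listed at 0 in all EPSCM libraries and in ES replicates 1 and 2, with 0.139 in ES replicate 3. It passed the filter only through the 2iLIF libraries where it was high, so its differences, 1.46 ± 0.10 for 2iLIF against ES and -1.53 ± 0.10 for EPSCM against 2iLIF, are a description with no test. No gene of the fused S100 proteins of the skin, such as Flg2, Hrnr and Tchh, reached 1 FPKM in any library.

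From the first to the last S100 gene on chromosome 3, in the gene order of GRCm38, the table held 68 genes, of which 14 were S100 genes. The other 54, among them the genes of the skin barrier, all stayed under 1 FPKM in every library, so that the 6 tested members were the only genes of that stretch that were tested. Of the 8 tested genes on each side, 16 in all, limma called none higher and 2 lower in 2iLIF than in ES, namely Tdrkh at -1.52 ± 0.14 (adjusted p = 1.36e-05) and Cgn, a tight junction gene, at -1.86 ± 0.07 (adjusted p = 5.69e-08). In EPSCM against ES Dennd4b alone was called, higher at 1.32 ± 0.09 (adjusted p = 1.30e-06). In EPSCM against 2iLIF 3 were called higher and none lower, Dennd4b at 1.13 ± 0.09 (adjusted p = 3.95e-06), Tdrkh at 1.72 ± 0.14 (adjusted p = 5.54e-06) and Cgn at 2.22 ± 0.07 (adjusted p = 2.38e-08). The gene next to S100a1, Chtop, differed by 0.35 ± 0.06 in 2iLIF against ES and by 0.11 ± 0.06 in EPSCM against ES, short of the limit. By the same call, 14.7% of all tested genes differed between 2iLIF and ES, 19.7% between EPSCM and ES and 16.1% between EPSCM and 2iLIF.

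**Figure D4:**
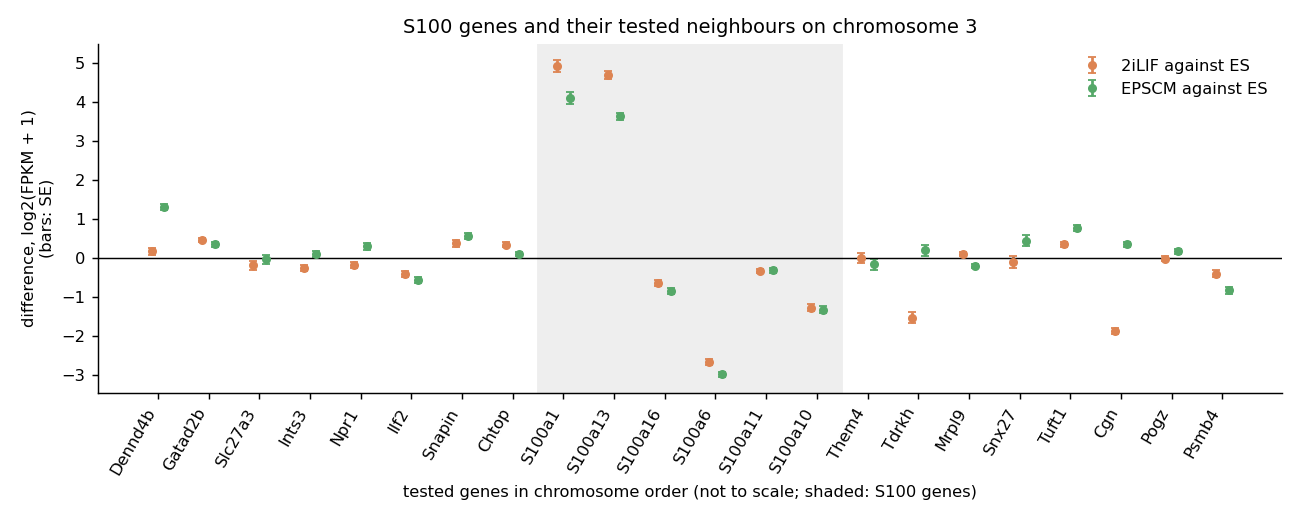
Difference on the log2(FPKM + 1) scale ± SE against ES of the tested genes in their order on chromosome 3 (not to scale), with the S100 genes shaded. S100a1 and S100a13 stand at 3.64 to 4.94, S100a6 at -2.66 and -2.98, and the 16 flanking genes lie between -1.86 and 1.32.

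Partners and relatives of S100 proteins were taken from 8 lists of 127 genes, 122 of them in the table and 83 tested with limma over all genes. Of the 83, 50 came from 5 lists of genes that work with S100 proteins, and 33 were relatives, S100g and other EF-hand genes. In EPSCM against ES 18 were called higher and 9 lower, in EPSCM against 2iLIF 14 and 7, and in 2iLIF against ES 11 and 9. Those that work with S100 proteins made up 17 of the 27 calls, 12 of 21 and 15 of 20 in these comparisons. Of the 83 genes 10 reached 1 FPKM in a single medium and so passed the filter only through the medium where they were high. Without these 10, the counts over the other 73 were 15 higher and 8 lower, 11 and 4, and 8 and 8. The counts and medians by list below include them. Those called, these 10 included, were 32.5%, 25.3% and 24.1% of the 83, beside 19.7%, 16.1% and 14.7% of all tested genes. The lists, like the members, were chosen with earlier results of these data known, so nothing is read from these shares. The adjusted p-values of list genes do not allow for that choice. By direction, the share over all tested genes was 11.7% higher and 7.97% lower for EPSCM against ES, 10.1% and 5.91% for EPSCM against 2iLIF, and 7.62% and 7.12% for 2iLIF against ES. With quantile normalization the majority in EPSCM against ES turned, from 1440 genes higher and 983 lower to 1141 and 1162, and EPSCM against 2iLIF went from 1250 and 729 to 1010 and 902. A gene was called where its Benjamini-Hochberg adjusted p was under 0.05 and its difference reached 1 in size.

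Annexins, which bind membranes in the presence of calcium, had 3 called higher and none lower among 9 tested in EPSCM against ES, with a list median of 0.18 beside 0.09 over all genes. In 2iLIF against ES 3 were higher and 1 lower (median 0.09 beside 0.03), and in EPSCM against 2iLIF 1 was higher and 1 lower (median -0.02 beside 0.03). Anxa2, the partner of S100a10, stood at 26.5, 22.3 and 22.8 FPKM in ES, at 16.03, 13.7 and 12.4 in 2iLIF and at 125, 149 and 125 in EPSCM. All EPSCM libraries lay far above the other 6, with a limma difference of 2.43 ± 0.11 from ES (adjusted p = 1.63e-07) and 3.16 ± 0.11 from 2iLIF (adjusted p = 3.82e-08). Between 2iLIF and ES it differed by -0.73 ± 0.11, short of the fold limit. The order of the media was therefore not that of S100a10, and within a library the level of S100a10 was 7.92 to 8.13 times that of Anxa2 in ES, 5.44 to 5.81 times in 2iLIF and 0.523 to 0.621 times in EPSCM.

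Anxa4 and Anxa5 rose in both comparisons against ES. Anxa4 stood at 9.98 ± 0.390 FPKM in ES, 40.3 ± 0.233 in 2iLIF and 28.9 ± 0.403 in EPSCM, and Anxa5 at 3.96 ± 0.170, 11.9 ± 1.09 and 19.7 ± 0.945. Anxa1, the partner of S100a11, was low, at 0.752 ± 0.183 FPKM in ES, 0.601 ± 0.259 in EPSCM and 3.62 ± 1.21 in 2iLIF, and it passed the filter only through 2iLIF. Anxa8 fell in 2iLIF to 0.570 ± 0.128 from 2.70 ± 0.184 FPKM in ES. Anxa11, which binds S100a6, stood at 28.9 ± 3.65, 24.0 ± 1.22 and 32.9 ± 2.95 FPKM in ES, 2iLIF and EPSCM and was not called in any comparison.

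**Figure D5:**
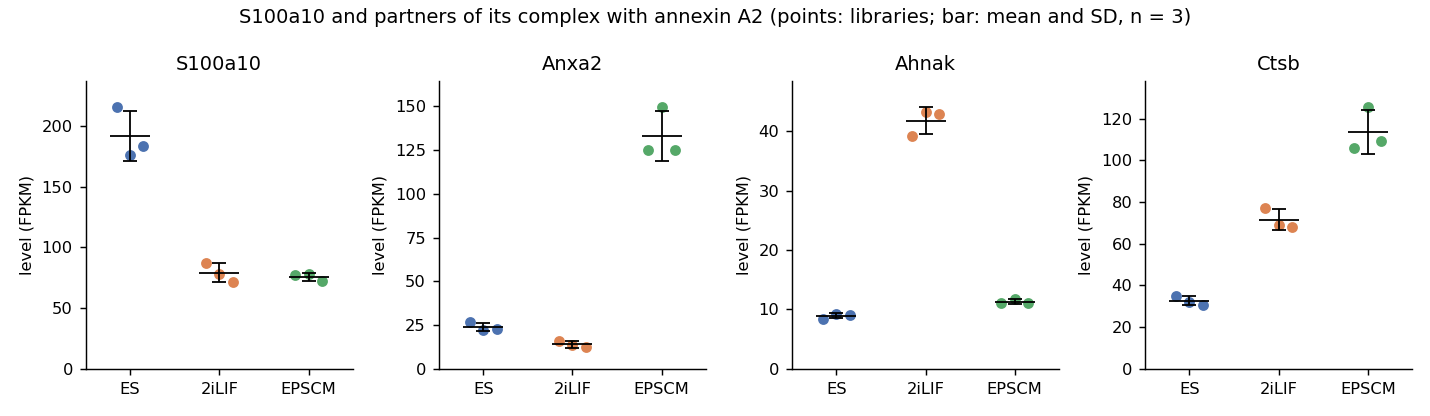
Level in FPKM of S100a10, Anxa2, Ahnak and Ctsb in each library (points) by medium, with mean and SD (n = 3). S100a10 is highest in ES, Anxa2 and Ctsb in EPSCM and Ahnak in 2iLIF.

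Of the cargo of the S100a10 complex and the plasminogen system, 3 of 11 tested genes were called higher and none lower in EPSCM against ES, and likewise 3 and none in 2iLIF against ES, with 1 higher and 2 lower in EPSCM against 2iLIF. The medians were 0.31, 0.38 and 0.25 beside 0.09, 0.03 and 0.03 over all genes. The last was the value of Plat, which passed the filter only through EPSCM. Plau and Htr1b also passed through a single medium, so nothing is read from these medians. Ahnak, the giant scaffold protein bound by the complex of S100a10 and annexin A2, stood at 8.93 ± 0.426 FPKM in ES, 41.8 ± 2.27 in 2iLIF and 11.3 ± 0.405 in EPSCM. It rose in 2iLIF against ES by 2.11 ± 0.06 (limma adjusted p = 1.30e-08). Ctsb, the protease cathepsin B, rose to 113 ± 10.6 FPKM in EPSCM and to 71.5 ± 5.03 in 2iLIF from 32.7 ± 2.10 in ES. Plau, the urokinase gene, was low at 1.49 ± 0.198 FPKM in EPSCM and 0.178 ± 0.0531 in ES. It passed the filter only through EPSCM, and its difference of 1.08 ± 0.07 was at 0.89 with quantile normalization. Htr1b, the serotonin receptor that S100a10 carries to the surface, stood at 1.89 ± 0.365 FPKM in 2iLIF, above 0.230 ± 0.0813 in ES and 0.172 ± 0.0695 in EPSCM, and passed the filter only through 2iLIF.

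Among 23 intracellular targets of S100 proteins, 3 were higher and 3 lower in EPSCM against ES, 2 and 3 in 2iLIF against ES, and 2 and 1 in EPSCM against 2iLIF, with medians of -0.01, -0.03 and 0.09 beside 0.09, 0.03 and 0.03. Cacybp, the partner of S100a6, stood at 108, 181 and 160 FPKM in ES, at 49.8, 76.2 and 70.0 in 2iLIF and at 71.4, 47.3 and 74.4 in EPSCM, so the library that stands apart was the lowest in each medium. It fell by 1.17 in 2iLIF against ES (SE 0.24, limma adjusted p = 0.00237) and by 1.20 in EPSCM against ES (SE 0.24, adjusted p = 0.00178). Both calls rest on a narrow margin: without 2iLIF replicate 1 the first was -0.993 and without EPSCM replicate 2 the second was -0.996. Trp53, whose product p53 is bound by several S100 proteins, fell to 76.0 ± 7.52 FPKM in EPSCM from 318 ± 31.6 in ES and 233 ± 19.2 in 2iLIF. Sugt1, a co-chaperone that binds S100a6, fell to 35.0 ± 6.08 FPKM in EPSCM and 59.1 ± 11.9 in 2iLIF from 122 ± 27.2 in ES. Its difference in 2iLIF against ES, -1.02 ± 0.21, was just past the limit of 1. Myh9, the non-muscle myosin bound by S100a4, stood at 29.5 ± 2.45, 29.0 ± 2.11 and 26.2 ± 2.51 FPKM in ES, 2iLIF and EPSCM and was not called. Of the actin-binding targets, Tpm4 rose to 75.3 ± 13.9 in EPSCM and 63.5 ± 11.5 in 2iLIF from 26.1 ± 4.81 FPKM in ES. Iqgap1 rose to 67.8 ± 0.660 in 2iLIF and 43.4 ± 0.0842 in EPSCM from 19.2 ± 0.283 in ES.

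The S100 receptor list had 5 tested genes, of which 1 was higher and 2 lower in EPSCM against ES. In 2iLIF against ES none was higher and 2 were lower, and in EPSCM against 2iLIF 3 were higher and none lower. The medians were 0.70, 0.10 and 1.60 in this order, beside 0.09, 0.03 and 0.03 over all genes. Both medians against ES were the values of Ager, which passed the filter only through EPSCM, so nothing is read from them. Bsg, or basigin, a chaperone of lactate transporters that also binds S100 proteins outside the cell, rose to 818 ± 32.6 FPKM in EPSCM from 214 ± 13.4 in ES and 244 ± 5.44 in 2iLIF. Its relative Emb stood at 20.02 ± 2.55 FPKM in ES, 0.831 ± 0.129 in 2iLIF and 5.77 ± 0.650 in EPSCM. Mcam, an adhesion molecule, had the same order, at 37.7 ± 2.77, 3.18 ± 0.0736 and 11.7 ± 0.557 FPKM. Of the list for secretion with S100a13, Fgf1, a growth factor released together with S100a13, stood at 1.89 ± 0.136 FPKM in ES, 0.0672 ± 0.0337 in 2iLIF and 0.153 ± 0.0448 in EPSCM. It passed the filter only through ES. Sphk1, a sphingosine kinase, was at 0.491 ± 0.102 FPKM in ES, with 2.34 ± 0.304 in EPSCM. It passed the filter only through EPSCM, and its difference of 1.16 ± 0.08 was at 0.98 with quantile normalization.

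Other calcium sensors and buffers with EF-hands, the calcium-binding fold that S100 proteins share, had 7 higher and 3 lower among 32 tested in EPSCM against ES, 6 and 2 in EPSCM against 2iLIF, and 2 and 2 in 2iLIF against ES, with medians of 0.28, 0.26 and 0.11. Calml4, a calmodulin-like gene, fell to 1.13 ± 0.361 FPKM in 2iLIF and 1.28 ± 0.319 in EPSCM from 23.4 ± 2.81 in ES, with limma differences of -3.52 ± 0.14 (adjusted p = 8.52e-08) and -3.42 ± 0.14 (adjusted p = 1.04e-07). Rcn3, a calcium-binding protein of the secretory pathway, rose to 62.1 ± 8.90 FPKM in EPSCM from 19.6 ± 1.92 in ES and fell to 5.71 ± 0.484 in 2iLIF. Calu, which lies in the same compartment, rose to 202 ± 30.9 FPKM in EPSCM from 59.6 ± 7.86 in ES. Calb2, or calretinin, stood at 11.3 ± 1.44 FPKM in 2iLIF, above 4.34 ± 0.476 in ES and 1.05 ± 0.0916 in EPSCM.

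Markers of other cell types were read beside these results, since S100 genes are also expressed in stromal, trophoblast and endoderm cells. The 10 fibroblast markers summed to 15.3 to 17.9 FPKM in ES, 4.30 to 4.78 in 2iLIF and 12.003 to 14.7 in EPSCM. Only Thy1 and Pdgfrb of that list were tested, and they differed in direction. Thy1 stood at 14.4 ± 1.12 FPKM in ES, 0.410 ± 0.0412 in 2iLIF and 6.02 ± 0.762 in EPSCM, and Pdgfrb at 1.29 ± 0.220, 3.28 ± 0.267 and 5.74 ± 0.653. In EPSCM against ES limma called Thy1 lower (-1.13 ± 0.09, adjusted p = 3.71e-06) and Pdgfrb higher (1.56 ± 0.10, adjusted p = 8.35e-07). Col3a1, Postn, Lum and Dcn of the same list stayed under 0.1 FPKM in every library. Pdgfra, also not tested, averaged 0.242, 0.577 and 1.04 FPKM in ES, 2iLIF and EPSCM, and Col1a1 0.383, 0.168 and 0.276. The 8 macrophage markers summed to 21.0 to 28.0 FPKM over all libraries, nearly all of it from Cd68, with Ptprc, Lyz2 and Adgre1 under 0.1. The 12 trophoblast markers summed to 42.8 to 50.4 FPKM in ES, 78.5 to 90.5 in 2iLIF and 69.0 to 83.5 in EPSCM. Elf5 was under 0.1 FPKM and Prl3d1 listed at 0 throughout. Of 7 tested, 3 were called higher and 2 lower in 2iLIF against ES. In EPSCM against ES 1 was higher and none lower, and in EPSCM against 2iLIF 2 and 2. Krt8 averaged 6.90, 47.6 and 6.16 FPKM in ES, 2iLIF and EPSCM, Tfap2c 18.2, 21.7 and 37.3, and Eomes 1.03, 3.30 and 4.40. Cdx2 reached 1 FPKM only in 2iLIF, with a mean of 2.85. Krt19 fell from 10.8 in ES to 1.27 in 2iLIF, and Ascl2 from 4.06 to 0.883. The 12 primitive endoderm markers summed to 119 to 121 FPKM in ES, 113 to 115 in 2iLIF and 153 to 159 in EPSCM. Against ES, 3 of 7 tested were called higher in EPSCM and 1 lower. Means rose between ES and EPSCM for Gata4 (0.817 to 3.22 FPKM), Gata6 (0.675 to 3.17) and Col4a1 (5.79 to 27.1). Those of Sox7 (2.79 to 0.0315) and Lamb1 (23.5 to 14.9) fell. Gata6 reached 1 FPKM only in EPSCM and Sox7 only in ES. Sox17, which was not tested, stayed under 1 FPKM in every library. The 8 neural markers summed to 67.1 to 74.5 FPKM in ES, 21.6 to 25.1 in 2iLIF and 26.4 to 30.1 in EPSCM, with 1 of 4 tested called higher and 1 lower in EPSCM against ES, 1 and none in EPSCM against 2iLIF, and none and 1 in 2iLIF against ES. Tubb3 held most of the sum, at 62.9 ± 3.94 FPKM in ES, 19.6 ± 1.82 in 2iLIF and 16.2 ± 1.501 in EPSCM, while Nes was highest in EPSCM, at 2.34 ± 0.208, 1.76 ± 0.0335 and 8.30 ± 0.604, and Sox1 stood at 1.94 ± 0.0281, 1.19 ± 0.155 and 2.02 ± 0.0606 FPKM. The part of any of these markers' cells in the S100 levels was not tested.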

How the data were processed

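RNA of 9 libraries of E14 cells was sequenced after selection of messenger RNA with a stranded kit, per the labels' protocols. The authors deposited 1 FPKM value per gene symbol and library, made with STAR and Cuffnorm on mm9, per the submitters' processing notes. The sources used here do not give versions, annotation, scaling or use of strand. Because FPKM is relative to the library, a change in very abundant genes moves the rest.

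Values were taken as log2(FPKM + 1). The filter of 1 FPKM or more in 3 or more libraries kept 12330 of 24819 genes. A limma model (limma 3.58.1, R 4.3.3) was fitted to all 9 libraries with a mean per medium, a variance prior that follows the level, and Benjamini-Hochberg adjustment. It was tested on simulated data. A call required an adjusted p below 0.05 and a difference of 1 or more in size.

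The members and lists were chosen with earlier results of these data known. Named genes were all members, per list and comparison up to 4 called genes, taken by size of difference where the higher medium averaged 1 FPKM or more, the partners Anxa1, Anxa2, Anxa11, Ahnak, Cacybp and Myh9, the other S100 genes, the 3 nearest patterns per member and the neighbouring genes. Not all are printed, and some items are not reported here. Marker genes named for their level near 0, their large part of a sum or their large difference were chosen after their values were seen. Libraries were grouped by the labelled culture condition, and replicates were numbered in accession order. Sequences and gene order came from RefSeq and GENCODE for GRCm38, matched by symbol (24269 of 24819), and no coordinate was carried over to mm9. Alternatives were another pseudocount, filters, scalings, covariates, averaging of close libraries and leaving out libraries.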

Additional observations from a re-analysis of the deposited data

How the results depend on the processing

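The 18 differences of the 6 tested members were recomputed 357 times in all under 20 alternatives. The sign changed in 4 of these values, all for S100a10 or S100a11 between EPSCM and 2iLIF, where the difference was near 0, and S100a16 in EPSCM against ES passed 1 in size in 2, at -1.07 with a pseudocount of 0.1 and -1.11 with quantile normalization. Without the 3 libraries that stand apart, an alternative chosen after seeing the data, S100a1 differed by 3.91 in EPSCM against ES and by 4.69 in 2iLIF against ES. Requiring a mean of at least 5 FPKM lowered the genes called to 1532 in EPSCM against ES, 1025 in EPSCM against 2iLIF and 1055 in 2iLIF against ES, from 2423, 1979 and 1817, with fewer genes tested, and the partner genes called in EPSCM against 2iLIF to 13 from 21. A pseudocount of 0.1 gave 2738 genes in 2iLIF against ES. Leaving out 1 library gave 2405 to 2492, 1975 to 2017 and 1808 to 1895 genes, and 26 to 27, 21 and 18 to 20 partner genes. Of called genes 63.2% were higher in EPSCM against 2iLIF and 59.4% in EPSCM against ES. After quantile normalization these were 52.8% and 49.5%, so that in EPSCM against ES more genes were lower (1162) than higher (1141), where the main counts were 983 and 1440.

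Of 65 differences of named partner genes, 6 values fell below the limit: Plau with quantile normalization (0.89 against ES, 0.75 against 2iLIF) and without EPSCM replicate 2 (0.99 against 2iLIF), Sphk1 with quantile normalization (0.98), and Cacybp as given above. Signs changed only in differences that were not called. Anxa1 in EPSCM against ES ranged from -0.217 to 0.00399 when 1 library was left out, the last without EPSCM replicate 2. Cacybp in EPSCM against 2iLIF was at 0.0263 with quantile normalization and ranged from -0.208 to 0.178 when 1 library was left out. Myh9 in 2iLIF against ES was at 0.0300 scaled to the same sum and ranged from -0.0796 to 0.0414 when 1 library was left out. No paired analysis was possible because the replicate numbers are in accession order and the library numbers are not shared between media. Read counts were not used, so the precision of S100a3, S100a4 and other low genes is limited to the rough worth of 1 fragment.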
